A study of Mus musculus with 4 samples.

Results

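The genes for the proteins of the cytosolic ribosome were followed through 4 RNA-seq libraries of primary mouse neural stem cells. They were chosen by symbol alone: Rps or Rpl with a number and an optional short suffix, the P stalk genes Rplp0 to Rplp2, and Rpsa, without ribosomal protein S6 kinases, genes named as pseudogenes (-ps) and numbered Gm genes. This rule found 83 of the 17621 genes in the files, and 80 of them reached a mean of 1 CPM (counts scaled to a common library size) over the libraries, as did 12976 genes in all. The 80 fall into 31 genes of the small subunit, 43 of the large subunit, 3 of the P stalk and 3 paralogs named after another member (Rps27l, Rpl7l1 and Rpl22l1). The members lie on 19 chromosomes, with at most 14 on any of them (chromosome 7). Cells came from the cortex of mouse pups at P0. All 4 cultures carried floxed Seh1 alleles, which bear target sites for the Cre recombinase. Ctrl cells had the genotype Seh1 f/f and iKO cells the genotype cmv-cre-ert, seh1 f/f, in which a CMV promoter, active in many cell types, drives Cre fused to an estrogen receptor domain. Each genotype was sampled at day 0 in growth medium, which contains EGF and bFGF, and at day 3 in differentiation medium, from which both factors had been withdrawn. The labels state neither whether and when an inducer was added nor how many mice a culture came from. Each group held 1 library, so no difference below has a replicate check, no p-value was computed, and intervals cover counting error only.

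A ribosome joins a small and a large subunit, each built from ribosomal RNA and many proteins that are needed in matching amounts. The mRNAs of these proteins are among the most abundant of a growing cell, and most begin with an uninterrupted run of C and T bases, the terminal oligopyrimidine (TOP) motif, through which mTORC1 signalling controls their translation. Seh1 (gene symbol Seh1l) works in the Y complex, a scaffold of nuclear pores, and in GATOR2, which acts in the amino acid branch of mTORC1 signalling. Neural stem cells make many ribosomes while they proliferate, and ribosome production is known to fall when they leave the cell cycle.

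Runs of pyrimidines near the start sites were common among the members. Promoter windows of 300 bases, from 250 before to 50 after a transcription start, were found in the RefSeq table (GRCm38.p6) for 63 of the 83 members. A run of at least 7 C or T bases within 15 bases either side of the start was present for 35 of them (55.6%). Over the 27025 genes of the table the share was 21.3%. These shares include runs that lie wholly before the start, so they are not shares of TOP mRNAs. The motif CCGGAAG, the core bound by ETS factors, lay on either strand in the windows of 26 members (41.3%) and of 9.93% of all genes. The YY1 motif AAGATGG was found for 10 members (15.9% against 7.28%), the E-box CACGTG for 6 (9.52% against 8.09%) and TATAAA for 8 (12.7% against 15.7%). A match is a description of these letters and does not show a bound site. Stretches of 80 bases on the transcribed strand, 60 before the start and 20 from it onwards, are shown for 2 members with long runs (Rpl35 and Rpl15) and for the pair Rps27 and Rps27l, whose levels parted most among paralogs. Capitals mark the run of C and T.
Rpl35, chr2:39005112-39005191, minus strand: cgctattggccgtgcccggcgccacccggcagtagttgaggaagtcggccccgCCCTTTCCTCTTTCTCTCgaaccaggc
Rpl15, chr14:18270967-18271046, minus strand: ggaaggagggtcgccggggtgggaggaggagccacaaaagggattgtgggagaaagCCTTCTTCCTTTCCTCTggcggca
Rps27, chr3:90213629-90213708, minus strand: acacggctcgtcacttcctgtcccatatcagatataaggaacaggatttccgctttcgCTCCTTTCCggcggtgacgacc
Rps27l, chr9:66946026-66946105, plus strand: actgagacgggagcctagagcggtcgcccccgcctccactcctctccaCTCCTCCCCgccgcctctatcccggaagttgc
The run spanned 18 bases in Rpl35 and 17 in Rpl15 and crossed the start in both. In Rps27 it spanned 9 bases and also crossed the start. At the upstream of the 2 listed starts of Rps27l it spanned 9 bases and ended before the start. The downstream start of Rps27l had a longest run of 4.

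Library totals ranged from 19611748 to 21040586 expected counts. The targeted gene Seh1l was at 40.3 CPM (Ctrl) against 19.2 CPM (iKO) on day 0 and at 33.2 against 11.03 CPM on day 3. The 6 neural stem and progenitor markers had summed levels from 4255 to 5703 CPM, whereas summed markers of microglia, endothelium, fibroblasts and mural cells, and erythroid cells reached at most 16.1 CPM. The stem and progenitor sums were 5556 CPM (Ctrl) and 5703 CPM (iKO) on day 0 and 4423 and 4255 CPM on day 3. Vim alone gave 2924, 3418, 1125 and 2156 CPM of them in that order, so 1 gene weighs heavily in these sums. Markers of other kinds also differed between the libraries. Summed cycling genes descended in the order of the members and summed astrocyte genes rose in that order. Those of neurons and of the oligodendrocyte lineage did neither. The 4 cycling genes summed to 2202 CPM (Ctrl) and 1277 CPM (iKO) on day 0 and to 117 and 101 CPM on day 3, and the 6 astrocyte genes to 1638, 2618, 14817 and 20540 CPM in the same order. The 6 neuron markers summed to 913, 849, 1701 and 909.9 CPM and the 7 of the oligodendrocyte lineage to 4634, 4104, 4492 and 3389 CPM, both lower in iKO than in Ctrl on day 3. Their part in the results below was not tested. In bulk RNA, fewer cells of a type and less RNA per cell cannot be told apart.

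Ribosomal protein mRNA took the largest share of the library in Ctrl at day 0, followed by iKO at day 0, Ctrl at day 3 and iKO at day 3. The 83 members held 4.28% of all counts (95% Clopper-Pearson interval 4.27 to 4.28) in Ctrl at day 0 and 3.64% (3.63 to 3.65) in iKO at day 0. At day 3 the share was 1.86% (1.85 to 1.86) in Ctrl and 1.22% (1.21 to 1.22) in iKO. After scaling with the trimmed mean of M values (TMM), the summed level was 44254 CPM, 34470 CPM, 18235 CPM and 12657 CPM in that order. It was 1.28-fold lower in iKO than in Ctrl at day 0 (1.28 to 1.29) and 1.44-fold lower at day 3 (1.43 to 1.45). From day 0 to day 3 it fell 2.43-fold in Ctrl (2.42 to 2.44) and 2.72-fold in iKO (2.71 to 2.74). The same descending order of the 4 libraries held for 77 of the 80 measured members, and for 17.7% of the 12976 genes; Rps27l, Rpl34 and Rpl36 departed from it.

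**Figure D1:**
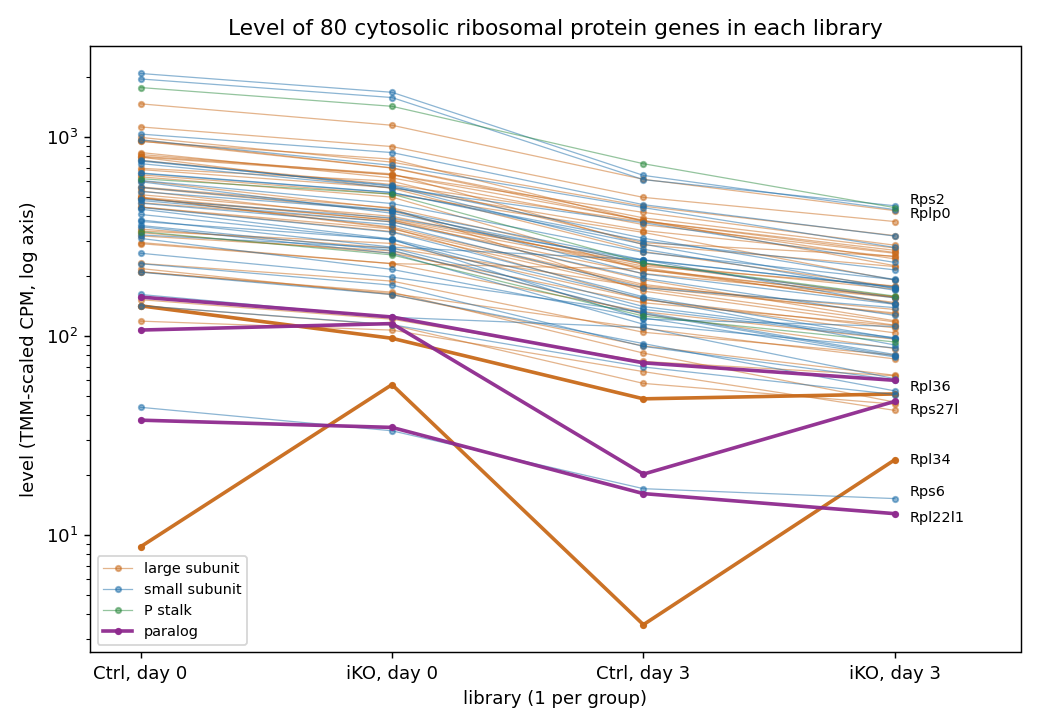
Level of the 80 measured members in each library (TMM-scaled CPM, log axis); each line is 1 gene, coloured by the part of the ribosome (thick lines are the paralogs, Rpl34 and Rpl36), with 1 library per group and no error bars. Most lines run down together from Ctrl at day 0 to iKO at day 3, while Rps27l and Rpl34 rise from Ctrl to iKO at both days and Rpl36 runs level at day 3 (48.3 CPM in Ctrl and 51.1 CPM in iKO).

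In growth medium the members lay below Ctrl in iKO by a small and even amount. Log2 ratios, computed as log2 of (CPM + 1) in iKO over the same in Ctrl, lay below 0 for 78 of 80 members, against 56.5% of all genes. With library totals in use instead of TMM, 77 members and 5545 of the 12976 genes lay below 0, where TMM put 7328 genes. The members' median under TMM was -0.36, against -0.06 over all genes, and the middle 50% of members spanned 0.0959 log2 units, against 0.490 for all genes. No member was at least 2-fold lower, as 0.331% of genes were, and 1 was at least 2-fold higher (2.67% of genes), Rpl34. The interval of the fold lay below 1 for 77 members (39.5% of genes). It included 1 for Rpl22l1 alone and lay above 1 for Rpl34 and Rps27l.

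The lowest ratios at day 0 belonged to Rpl36, Rps23, Rpl27a, Rps13 and Rpl14. Rps23, a protein of the decoding centre, was at 597 CPM (Ctrl) against 414 CPM (iKO) on day 0 and at 233 against 155 CPM on day 3. That made it 1.44-fold lower at day 0 (1.40 to 1.48). Rps13 was at 310, 216, 123 and 78.4 CPM in the same order of libraries and 1.43-fold lower at day 0 (1.38 to 1.49). Rpl27a, at 794, 553, 266 and 177 CPM, stood 1.44-fold lower (1.40 to 1.47), and Rpl14, at 497, 349, 153 and 110 CPM, 1.42-fold lower (1.38 to 1.47). These 4 were ranks 2 to 5 from the lowest, with log2 ratios from -0.53 to -0.51. Lying within 0.02 log2 units of each other follows from such neighbouring ranks. Nearest to Ctrl among the core members was Rpl37, at 119 CPM (Ctrl) against 107 CPM (iKO) (log2 ratio -0.15, or -0.34 with the counts of its copy Rpl37rt added), followed by Rpl31 at 338 and 292 CPM (-0.21).

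After withdrawal of the growth factors the iKO library lay further below Ctrl. Log2 ratios lay below 0 for 77 of 80 members (51.3% of genes), with a median of -0.50 against -0.01 over all genes. No member was at least 2-fold lower (4.76% of genes), and 2 were at least 2-fold higher (6.27% of genes), Rpl34 and Rps27l. The interval of the fold lay below 1 for 76 members (35.6% of genes) and included 1 for Rps6 and Rpl36. The middle 50% of members spanned 0.192 log2 units, wider than at day 0, against 0.639 for all genes.

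Rps27, Rpl36a, Rpl10, Rps28 and Rps12 had the lowest ratios at day 3. Rpl10, which shapes the catalytic centre and joins the large subunit late, was at 646 CPM (Ctrl) against 517 CPM (iKO) on day 0. At day 3 it was at 332 and 191 CPM, 1.74-fold lower in iKO (1.67 to 1.81). Rpl36a was at 210.0, 166, 82.0 and 46.5 CPM across the libraries and 1.76-fold lower at day 3 (1.62 to 1.92). Rps28 was at 209, 162, 91.6 and 53.0 CPM, 1.73-fold lower at day 3 (1.60 to 1.87), and Rps12 at 434, 307, 155 and 90.1 CPM, 1.72-fold lower (1.62 to 1.83). For all 4, iKO was closer to Ctrl at day 0 than at day 3. That follows from their choice by day 3 ratio, since no member had a day 0 log2 ratio below -0.54. At the other end stood Rps19, the small subunit protein most often mutated in Diamond-Blackfan anaemia, at 122 CPM (Ctrl) against 112 CPM (iKO) on day 3 (log2 ratio -0.12), after 377 and 306 CPM at day 0 (-0.30).

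The iKO to Ctrl ratios of the 2 days share no library and were set against each other gene by gene. The day 3 ratio lay below the day 0 ratio for 69 of 80 members (44.4% of genes), with a median difference of -0.13 where all genes had 0.06. Unscaled library totals gave medians of -0.34 for the members and -0.13 for all genes, with 77 members and 8118 of the 12976 genes below 0, where TMM put 5755 genes. Both ratios were below 0 for 77 members (36.9% of genes). Among the differences furthest below 0 were those of Rpl37 (-0.49), Rpl10 (-0.47), Rpl36a (-0.47) and Rps27 (-0.47). With the counts of their copies Rpl37rt and Rps27rt added, the differences of Rpl37 and Rps27 were -0.19 and -0.30. The differences furthest above 0 were those of Rps27l (1.07), Rpl36 (0.62), Rps6 (0.23), Rps19 (0.18) and Rpl38 (0.09). With library totals, those of Rps19 and Rpl38 were below 0 (-0.03 and -0.12), and with the counts of its copy added, that of Rps6 was -0.12.

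Rpl36, a large subunit protein, was the only measured member with ratios of opposite sign at the 2 days. It was at 142 CPM (Ctrl) against 97.4 CPM (iKO) on day 0 and at 48.3 against 51.1 CPM on day 3. The day 0 fold was 1.46-fold lower in iKO (1.38 to 1.54), the lowest log2 ratio of that day (-0.54). At day 3 the fold was 1.06 (0.967 to 1.16), an interval that includes no difference, with a log2 ratio of 0.08 that became -0.00059 with library totals.

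**Figure D2:**
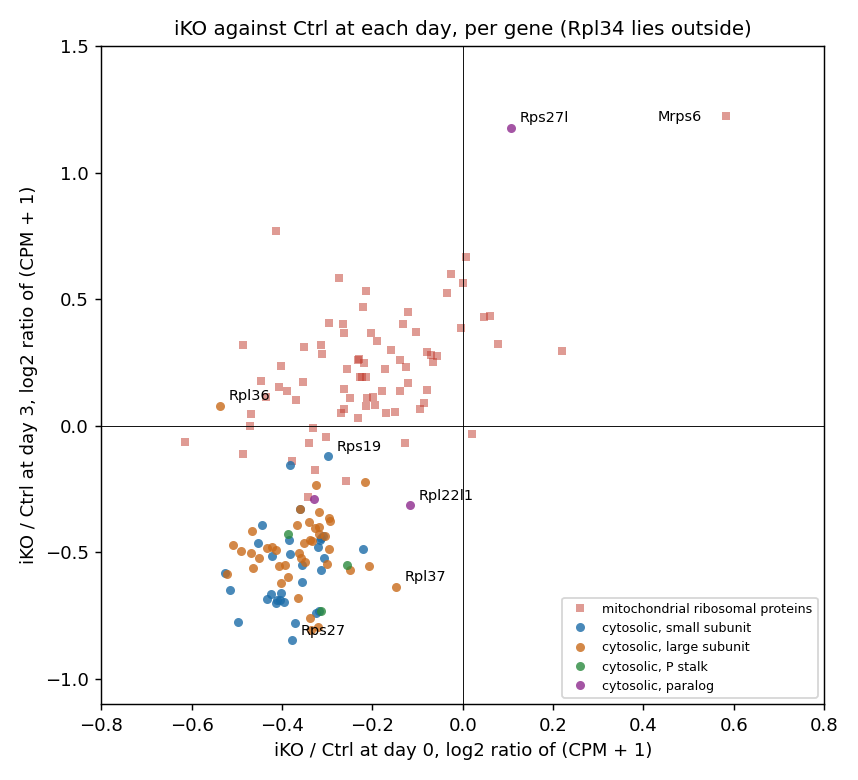
Log2 ratio of iKO to Ctrl at day 0 (horizontal axis) and day 3 (vertical axis) for cytosolic (circles) and mitochondrial (squares) ribosomal protein genes; each point is 1 gene from 4 libraries, and Rpl34 (2.58 and 2.46) lies outside the axes. Cytosolic genes gather at lower left with medians of -0.36 and -0.50, mitochondrial genes lie mostly at upper left with medians of -0.22 and 0.21, and Rps27l stands apart from the cytosolic genes.

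Between growth and differentiation medium every measured member fell in both genotypes. In Ctrl, 80 of 80 log2 ratios of day 3 to day 0 were below 0 (51.0% of genes) and 70 members were at least 2-fold lower (15.1% of genes), with a median of -1.27 against -0.02 for all genes. In iKO, 80 of 80 were below 0 (50.4% of genes) and 76 were at least 2-fold lower (11.4% of genes), with a median of -1.40 against -0.01. No member was at least 2-fold higher in either genotype (14.6% of genes in Ctrl and 11.2% in iKO), and all 80 intervals lay below 1 in both (43.2% of genes in Ctrl and 40.7% in iKO).

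Members differed in how far they fell. Rpsa, a small subunit protein that is also known as a laminin receptor, was at 2091 CPM (Ctrl) against 1682 CPM (iKO) on day 0 and at 642 against 432 CPM on day 3. It was 3.26-fold lower at day 3 in Ctrl (3.19 to 3.32) and 3.89-fold lower in iKO (3.80 to 3.98). Rps2, which lines the mRNA entry channel, was at 1962, 1583, 611 and 452 CPM, 3.21-fold lower in Ctrl (3.15 to 3.28) and 3.50-fold lower in iKO (3.42 to 3.59). Rpl12, near the base of the stalk, was at 603, 437, 168 and 113 CPM, with folds of 3.59 (3.45 to 3.73) and 3.85 (3.68 to 4.04) lower. These genes were among the 5 lowest ratios in both genotypes. Rpl22 fell least, at 295 CPM (Ctrl) against 231 CPM (iKO) on day 0 and 217 and 157 CPM at day 3, which was 1.36-fold lower in Ctrl (1.31 to 1.41) and 1.47-fold lower in iKO (1.41 to 1.54). Rps14 was at 384, 279.9, 242 and 175 CPM and 1.59-fold (1.53 to 1.64) and 1.60-fold (1.53 to 1.67) lower. Rpl22 and Rps14 were named for this rank. Their ratios of day 3 to day 0 were ranks 1 and 2 from the highest in iKO. In Ctrl they were ranks 1 and 3, with Rps27 at rank 2.

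Small and large subunit genes moved by similar amounts. For iKO against Ctrl the median log2 ratio at day 0 was -0.38 over the 31 small subunit genes and -0.35 over the 43 large subunit genes, and at day 3 it was -0.57 and -0.49. For day 3 against day 0 the medians were -1.30 and -1.22 in Ctrl and -1.51 and -1.33 in iKO. Below 0 were 31 of 31 small subunit genes at either day in iKO against Ctrl, and 42 of 43 large subunit genes at day 0 and 41 of 43 at day 3.

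The P stalk, the acidic arm of the large subunit that recruits translation factors, showed the same directions. Rplp0, its base, was at 1776 CPM (Ctrl) against 1430 CPM (iKO) on day 0 and at 735 against 442 CPM on day 3, 1.24-fold (1.22 to 1.26) and 1.66-fold (1.62 to 1.71) lower in iKO. Rplp1 was at 618, 517, 233 and 159 CPM, 1.19-fold (1.16 to 1.23) and 1.47-fold (1.40 to 1.54) lower. Rplp2, its partner, was at 335, 256, 126 and 93.3 CPM, 1.31-fold (1.26 to 1.36) and 1.35-fold (1.27 to 1.44) lower. So the order of the 3 folds at day 3 (Rplp0, Rplp1, Rplp2) was not their order at day 0, when Rplp2 was the lowest.

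Rpl5 and Rpl11 bind the 5S ribosomal RNA, and when ribosome assembly fails the complex they form can bind Mdm2 and stabilise p53. Rpl5 was at 765 CPM (Ctrl) against 578 CPM (iKO) on day 0 and at 376 against 244 CPM on day 3, 1.32-fold (1.29 to 1.35) and 1.54-fold (1.48 to 1.60) lower in iKO. Rpl11 was at 537, 388, 231 and 172 CPM, 1.38-fold (1.34 to 1.42) and 1.34-fold (1.28 to 1.40) lower. Both lay within the range of the other core members in these comparisons.

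The paralog Rps27l went against the family. Its protein is closely related to that of Rps27, a small subunit protein, and Rps27l is known as a p53 target gene. Rps27l lies on chromosome 9 at 66944624 to 66949522 (GRCm38; gene ID 67941). Its level stood at 107 CPM (Ctrl) against 115 CPM (iKO) on day 0 and at 20.2 against 46.9 CPM on day 3. It was therefore nearly level at day 0, 1.08-fold higher in iKO (1.02 to 1.14), and 2.32-fold higher in iKO at day 3 (2.06 to 2.62). From day 0 to day 3 it had the largest fall of any member in Ctrl, 5.30-fold (4.77 to 5.91), and fell 2.46-fold in iKO (2.28 to 2.66). Rps27 (gene ID 57294, chromosome 3, 90212667 to 90213648) was at 162, 124, 110 and 61.0 CPM. It was lower in iKO at both days, 1.30-fold (1.24 to 1.37) and 1.81-fold (1.69 to 1.95), the lowest ratio of any member at day 3 (-0.85).

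The share of Rps27l in the counts of the pair followed. It was 39.8% (38.5 to 41.2) in Ctrl and 48.2% (46.8 to 49.5) in iKO on day 0, and 15.5% (14.1 to 16.9) in Ctrl and 43.5% (41.3 to 45.7) in iKO at day 3. The Ctrl library at day 3 thus stood apart from the other 3. Per length, in the authors' FPKM, Rps27l was at 209, 246, 41.8 and 91.3 and Rps27 at 497, 417, 358 and 187. Rps27 and Rps27l share no window of 50 bases, so reads of that length are not identical between them. Rps27 however shares 98.6% of its windows with Rps27rt, a copy on the same chromosome as Rps27l. Rps27rt was at 68.0, 47.6, 22.2 and 19.2 CPM, and with its counts added to Rps27 the sum was 1.34-fold lower in iKO at day 0 (1.28 to 1.40) and 1.65-fold lower at day 3 (1.55 to 1.76).

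**Figure D3:**
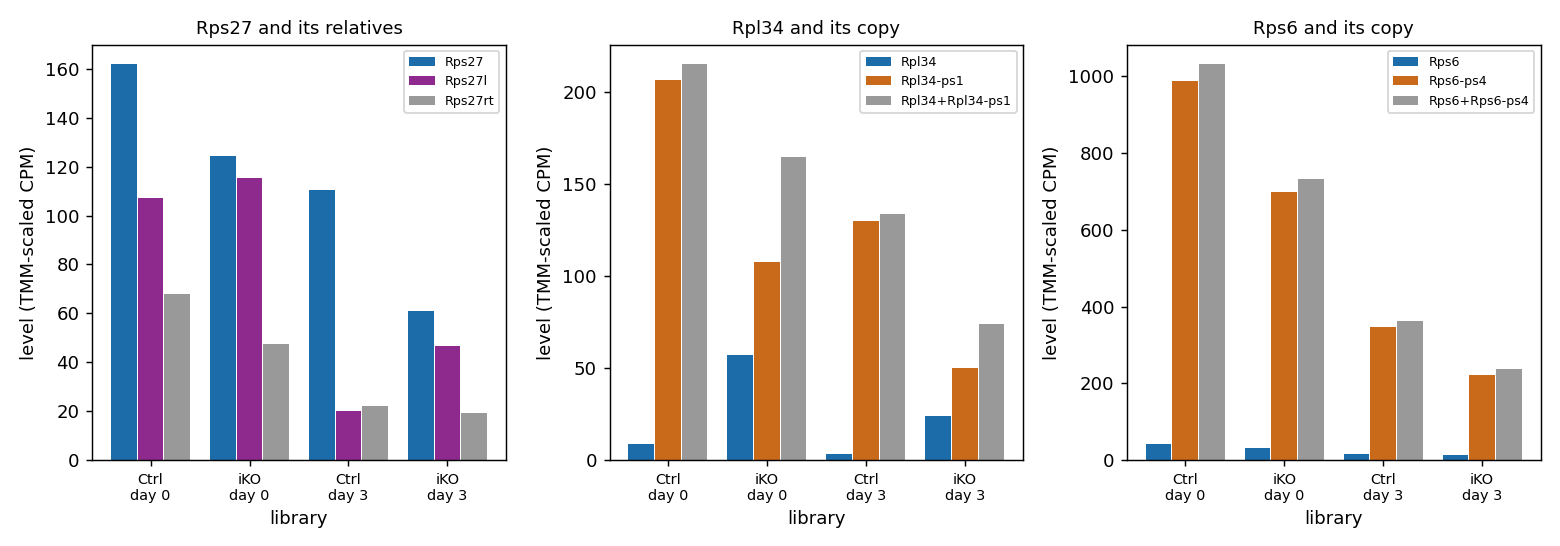
Bars give the level (TMM-scaled CPM, axes from 0) in each library for Rps27 with Rps27l and Rps27rt, for Rpl34 with Rpl34-ps1 and their sum, and for Rps6 with Rps6-ps4 and their sum; there is 1 library per group and no error bars. Rps27l drops to 20.2 CPM in Ctrl at day 3, Rpl34 is higher in iKO while its copy is lower, and both sums descend from Ctrl at day 0 to iKO at day 3.

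The other measured paralogs did not part from their parents in this way. Rpl22l1, a paralog of Rpl22 whose expression Rpl22 is known to restrain, was at 37.7 CPM (Ctrl) against 34.7 CPM (iKO) on day 0 and at 16.1 against 12.8 CPM on day 3. Its fold at day 0 was 1.09 lower in iKO (0.982 to 1.20), which includes no difference, and with library totals its log2 ratio was 0.0077. At day 3 it was 1.26-fold lower (1.06 to 1.50). From day 0 to day 3 it fell 2.34-fold in Ctrl (2.05 to 2.67), further than Rpl22. Rpl7l1 was at 157, 125, 73.3 and 59.8 CPM, 1.26-fold (1.20 to 1.33) and 1.22-fold (1.13 to 1.32) lower in iKO at the 2 days. Its parent Rpl7, a protein of the central protuberance region, was at 795, 646, 418 and 286 CPM, 1.23-fold (1.20 to 1.26) and 1.46-fold (1.41 to 1.51) lower. The remaining 3 paralogs did not reach 1 CPM on average: Rpl3l, a form of striated muscle, had 8, 4, 22 and 21 counts, Rpl32l had 16, 3, 1 and 0, and Rpl39l, a form of the testis, had 1, 0, 1 and 0. With counts at or near a floor of 3 per library, no fold is given for Rpl32l and Rpl39l.

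Several members share sequence with other genes, so where their reads were placed could affect their values. Over the 82 members with a matched transcript, a median of 49.9% of 50-base windows also occurred in transcripts of other genes (GENCODE), and 3 members had none. Among members with extreme ratios the share was 92.1% for Rpl10, 85.5% for Rpl36a, 83.2% for Rps12, 83.0% for Rps13 and 81.1% for Rpl36. The part of read placement in their values was not tested. Rpl34 (gene ID 68436, chromosome 3, 130726827 to 130730398) was at 8.71 CPM (Ctrl) against 56.9 CPM (iKO) on day 0 and at 3.53 against 23.9 CPM on day 3, 6.54-fold (5.58 to 7.70) and 6.75-fold (5.25 to 8.80) higher. Its copy Rpl34-ps1 on chromosome 6, with which it shares 50.6% of its windows, was at 206 CPM (Ctrl) against 108 CPM (iKO) on day 0 and at 130 against 50.0 CPM on day 3. The copy held 95.9% (95.3 to 96.5) of the pair's counts in Ctrl and 65.5% (63.9 to 67.0) in iKO on day 0, and 97.4% (96.7 to 97.9) and 67.7% (65.2 to 70.1) at day 3. The 2 Ctrl libraries were thus alike in this split and differed from the 2 iKO libraries, at either day. The sum of the pair, at 215, 165, 134 and 73.8 CPM, was 1.30-fold lower in iKO at day 0 (1.25 to 1.36) and 1.81-fold lower at day 3 (1.69 to 1.93), as core members were. The cause of this split was not tested.

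Rps6, the substrate of the S6 kinases downstream of mTORC1, held far fewer counts than its copy Rps6-ps4 in every library. Rps6 was at 43.8 CPM (Ctrl) against 33.4 CPM (iKO) on day 0 and at 17.1 against 15.2 CPM on day 3, while Rps6-ps4, which shares 84.6% of the windows of Rps6, held between 93.6% and 95.7% of the counts of the pair. Alone, Rps6 was 1.12-fold lower in iKO at day 3 (0.956 to 1.32), which includes no difference. The sum of the pair, at 1029.9 CPM, 733 CPM, 363 CPM and 238 CPM, was 1.41-fold lower at day 0 (1.38 to 1.44) and 1.53-fold lower at day 3 (1.47 to 1.58). Smaller differences came with Rpl37, whose copy Rpl37rt held between 52.0% and 60.3% of the pair's counts. Rpl37 alone had log2 ratios of -0.15 and -0.64 at the 2 days and the sum -0.34 and -0.53.

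Per length, the highest members were nearly the same in every library. By mean FPKM they were Rps2, Rpl23a, Rps26, Rpl41 and Rplp1. Rpl23a, which sits at the exit of the peptide tunnel, was at 1762 FPKM (Ctrl) and 1392 FPKM (iKO) on day 0 and at 753 and 502 FPKM on day 3. Rps26 was at 1526, 1332, 706 and 399 FPKM, and Rpl41, the shortest ribosomal protein, at 1456, 1259, 523 and 361. Rps2, Rpl23a and Rps26 took the first 3 places in all 4 libraries, with Rps2 first at day 0 (1937 and 1709 FPKM) and Rpl23a first at day 3. The median over the 80 members was 701 FPKM (Ctrl) and 611 FPKM (iKO) on day 0, and 324 and 211 FPKM on day 3. Rps15a and Rps20 had reads on transcript models of 5179 and 3706 bases, so that their FPKM, 48.6 and 100.2 in Ctrl at day 0, was low for members of similar CPM.

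Reads were assigned to more than 1 transcript model for some members, and the split of 2 of them changed most between libraries. For Rpl22l1 the curated RefSeq model held 67.1% (63.7 to 70.5) of the counts in Ctrl and 64.7% (61.2 to 68.1) in iKO on day 0, and 47.5% (42.0 to 53.1) and 20.3% (15.4 to 25.97) at day 3, the rest lying on a predicted model. For Rpl19, a large subunit protein, a second curated model, less used, held 6.04% (5.65 to 6.44) and 5.51% (5.13 to 5.91) at day 0 and 9.26% (8.53 to 10.03) and 32.7% (31.4 to 34.1) at day 3. For Rpl19 the iKO library at day 3 stood apart from the other 3. For Rpl22l1 that library had the lowest share, but Ctrl at day 3 also lay below both day 0 libraries. The shares of Rpl22l1 rest on 241 to 767 counts per library. These shares are estimates of the authors' assignment, whose error the intervals do not hold.

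Of the cytosolic ribosome genes that the symbol rule leaves out, Rack1, Fau and Rpl36al each lay below 0 for iKO against Ctrl at both days. Rack1, a signalling scaffold on the small subunit, was at 904 CPM (Ctrl) against 750 CPM (iKO) on day 0 and at 364 against 220 CPM on day 3, with log2 ratios of -0.27 and -0.72. Fau, which encodes a ubiquitin-like protein fused to a small subunit protein, was at 218, 178, 122 and 95.5 CPM (-0.29 and -0.35), and Rpl36al, a relative of Rpl36a, at 101, 73.7, 29.9 and 23.4 CPM (-0.45 and -0.34). Of 20 other genes with TOP mRNAs, 19 lay below 0 at day 0 (56.5% of genes) and 18 at day 3 (51.3% of genes), with medians of -0.29 and -0.32. Hnrnpa1, an RNA-binding protein, was at 1336, 922, 429 and 174 CPM. It was the only one of the 20 at least 2-fold lower in iKO at day 3 (-1.30), as 4.76% of genes were. Vim, an intermediate filament gene that is also a stem cell marker, was at 2924, 3418, 1125 and 2156 CPM and lay above 0 at both days (0.23 and 0.94).

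The mitochondrial ribosome did not share the lower level in iKO at day 3. Of 78 measured Mrpl and Mrps genes, 70 lay below 0 for iKO against Ctrl at day 0 (56.5% of all genes), with a median of -0.22. At day 3, 66 of the 78 lay above 0 (6315 of all 12976 genes) with a median of 0.21. Of the 78, 1 was at least 2-fold higher (6.27% of genes), Mrps6. With library totals the medians were -0.09 and 0.13, so neither changed sign, and 56 of the 78 lay below 0 on day 0 and 59 above 0 on day 3. Of all 12976 genes, 5545 then lay below 0 on day 0 and 5505 above 0 on day 3. The day 3 ratio exceeded the day 0 ratio for 77 of 78 mitochondrial genes, for 11 of 80 cytosolic members and for 7221 of all 12976 genes. With library totals these counts were 70 of 78, 3 of 80 and 4858 of 12976. Of 745 other genes with short transcripts (up to 1000 bases), 487 lay above 0 at day 3, with a median of 0.16. For 563 of the 745 the day 3 ratio exceeded the day 0 ratio. With library totals these 2 counts were 432 and 428. Mrps6 was at 91.6 CPM (Ctrl) against 138 CPM (iKO) on day 0 and at 40.1 against 95.1 CPM on day 3. Mrpl12, which also binds the mitochondrial RNA polymerase, was at 108, 80.5, 25.1 and 43.5 CPM, with log2 ratios of -0.41 and 0.77. From day 0 to day 3 mitochondrial genes fell less than cytosolic ones, with medians of -0.85 in Ctrl and -0.42 in iKO. With 1 library per group, the difference between the 2 families could not be tested over samples.

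**Figure D4:**
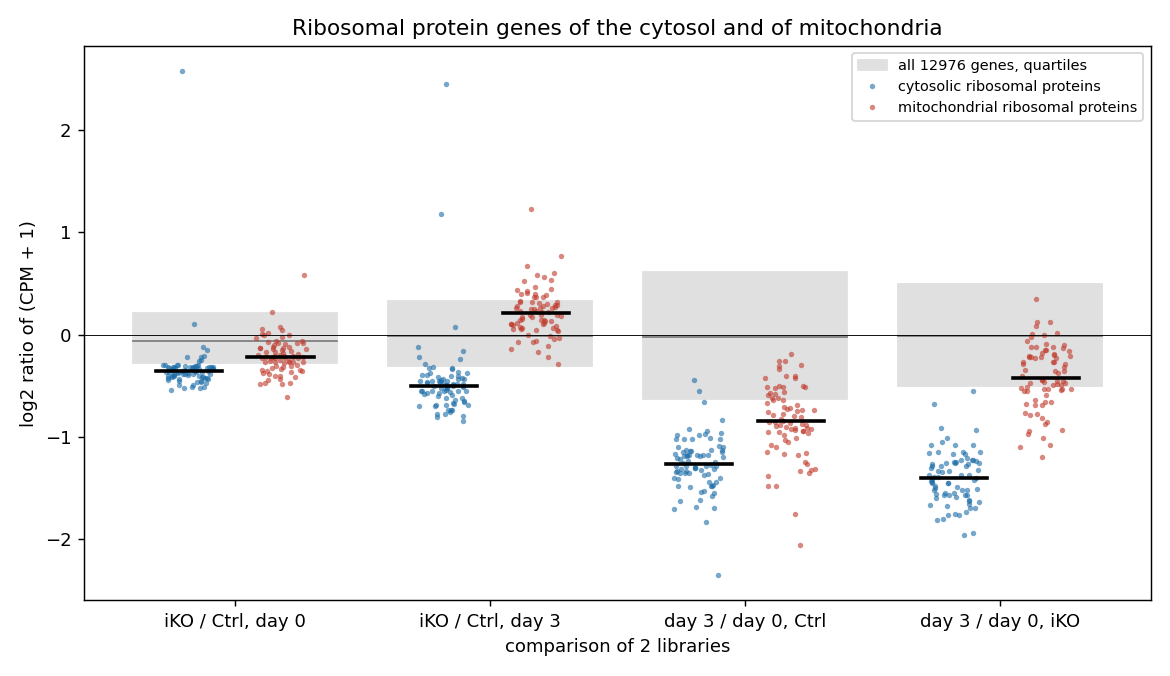
Log2 ratios for the 4 comparisons of 2 libraries each; blue points are cytosolic and red points mitochondrial ribosomal protein genes, black bars are their medians, and the grey box and line give the quartiles and median of all 12976 genes. In iKO against Ctrl at day 3 the cytosolic median is -0.50 and the mitochondrial median 0.21, and in both comparisons of the days the cytosolic points lie lower, with medians of -1.27 and -1.40.

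Genes that build or use the cytosolic ribosome were lower in iKO at day 0 and closer to Ctrl at day 3, the latter less so with library totals. All 30 ribosome biogenesis genes lay below 0 at day 0 with a median of -0.54, and 27 did so at day 3 with a median of -0.26. Of all genes, 56.5% lay below 0 at day 0 and 51.3% at day 3. The biogenesis genes fell from day 0 to day 3 in Ctrl by a median log2 ratio of -1.59, and 26 of 30 were at least 2-fold lower (15.1% of genes). Nop58, a core protein of the snoRNPs that methylate ribosomal RNA, was at 152, 97.7, 30.5 and 22.2 CPM. All 20 translation initiation factors lay below 0 at day 0 (median -0.38) and 13 at day 3 (median -0.08). Of 7 dedicated chaperones of ribosomal proteins 6 lay below 0 at day 0 (median -0.53) and 5 at day 3 (median -0.08). With library totals 29 biogenesis genes, 20 initiation factors and 6 chaperones lay below 0 on day 0, and 28, 15 and 6 on day 3. Of all 12976 genes, 5545 and 7469 then did so. The medians of the 3 lists were then -0.42, -0.25 and -0.41 on day 0 and -0.34, -0.16 and -0.15 on day 3. The median differences between the days were 0.27, 0.31 and 0.25 with TMM, and 0.061, 0.096 and 0.046 with library totals. None of these 3 lists held a gene that differed by 2-fold between iKO and Ctrl at either day. Of all genes, 2.67% were at least 2-fold higher and 0.331% lower at day 0, and 6.27% and 4.76% at day 3.

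Of 10 measured genes of mTORC1 and of TOP regulation, 10 lay below 0 at day 0 (56.5% of genes) and 6 at day 3 (51.3% of genes). The day 3 count was thus near the share of all genes. Medians were -0.25 and -0.14. With library totals 9 and 6 of the 10 lay below 0, as did 5545 and 7469 of the 12976 genes. Eif4ebp1, which encodes the translation repressor 4E-BP1 and is also a target of the ATF4 stress response, was at 50.4 CPM (Ctrl) against 44.8 CPM (iKO) on day 0 and at 8.46 against 40.1 CPM on day 3, with log2 ratios of -0.17 and 2.12. Mycn, a transcription factor that promotes ribosome production, was at 3.84, 3.44, 2.39 and 0.318 CPM, with a ratio of -1.36 at day 3. Its iKO level at day 3 lay below the pseudocount of 1 CPM, so that ratio rests on few reads and carries no interval here. Myc itself was at 258, 189, 80.5 and 48.9 CPM (-0.45 and -0.71). Larp1, which binds the TOP motif, was at 305, 228, 140 and 149 CPM (-0.42 and 0.09), and Mtor at 118, 105, 126 and 142 CPM (-0.17 and 0.17).

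Other genes with short transcripts or high levels had medians nearer to 0. Transcript length was here the length implied by the ratio of counts to FPKM. The 745 other genes of up to 1000 bases had medians of -0.07 and 0.16 for iKO against Ctrl at the 2 days. With library totals these medians were 0.05 and 0.08. The 2377 other genes that averaged 100 CPM or more had medians of -0.11 and -0.01, or 0.01 and -0.09 with library totals. For day 3 against day 0 in Ctrl these groups had medians of -0.54 and -0.11, against -1.27 for the members.

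The authors' deposited table of differential genes for day 0, as held here, stops within a cell and was not used for the members. The authors' deposited table for day 3 lists 1774 genes, where the files hold 17621. Of the 83 members it lists 2, both as higher in iKO. In the ratios above, 77 of the 80 measured members were lower in iKO at day 3, none of them by 2-fold or more. In the authors' deposited table Rps27l has a log2 ratio of 1.13 with an FDR of 3.9e-41, and Rpl34 one of 2.95 with an FDR of 1.52e-68. The authors' deposited table also holds Rpl34-ps1 at -1.46 (FDR 1.9e-175) and Mrps6 at 1.16 (FDR 9.01e-86). Each such FDR compares 2 libraries and carries no spread between cultures.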

How the data were processed

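The 4 libraries were prepared from total RNA by a BGI protocol, per the labels' protocols. HISAT, Bowtie2 and StringTie are named with mm10, per the submitters' processing notes; neither labels nor headers name the counting tool or the annotation release. The authors deposited an expected count and an expression value for each of 55122 RefSeq transcripts per library. The deposited value was taken as FPKM from the values, since its ratio to the count matched annotated transcript lengths (median ratio 0.998 to 1.00). The authors' tables give a log2 ratio and an FDR (an adjusted p-value), per the file headers.

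Expected counts were summed per gene and rounded. RefSeq (GRCm38.p6) gave symbols to 17498 genes, the authors' tables gave them to 19 more, and 104 had none. Scaling used edgeR 4.0.16 (TMM factors 0.962 to 1.06) in R 4.3.3. Ratios used a pseudocount of 1 CPM, which understates ratios of low genes, and were read for genes averaging 1 CPM or more. The printed fold has no pseudocount and carries an exact conditional (Clopper-Pearson) 95% interval (scipy 1.17.1). Reads are not independent molecules, and the total count limits precision only through that interval. Alternatives were unscaled library totals, DESeq2 1.42.0 size factors, TMM without ribosomal protein and histone genes, the deposited FPKM, other pseudocounts and filters, and adding or leaving out near-identical copies. Groups were taken from sample titles. The ratio code was checked on simulated counts.

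Members and gene lists were chosen with earlier results of these data known. Named are paralogs with parents, the P stalk, Rpl5, Rpl11, the highest members, the extremes of each comparison, members 2-fold apart and deposited ones, and the most extreme genes of other lists; of these the text gives a part, and the others named were chosen after their values were seen. Npm1 and Ltv1 are each in 2 lists. Protein sequences were not used here, and results on some genes are not reported here.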

Additional observations from a re-analysis of the deposited data

Results flagged for a closer look

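Rpl36 was singled out because its iKO library lay below Ctrl at day 0 (log2 ratio -0.54) and above it at day 3 (0.080). The difference was not tested, the day 3 interval includes no difference, and with library totals the day 3 value was -0.00059. The median of the mitochondrial ribosomal protein genes also changed sign between the days, from -0.22 to 0.21. That of other genes with an implied transcript length of up to 1000 bases did so too, from -0.072 to 0.16. With library totals the first pair of medians was -0.09 and 0.13, and the second was 0.05 and 0.08, without the change of sign. Of single genes outside the members, Mrpl12 went from -0.41 to 0.77 and Eif4ebp1 from -0.17 to 2.12. None of these differences was tested, since each day has 1 library per genotype.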

How the results depend on the processing

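No paired analysis was possible because each group holds 1 library and the labels give no replicate numbers. Under each other scaling, filter and pseudocount listed here all 5 medians of the members kept their sign. With library totals they were -0.23 and -0.58 for iKO against Ctrl at day 0 and day 3, -1.19 and -1.53 for day 3 against day 0 in Ctrl and iKO, and -0.34 for the difference between the days; with the deposited FPKM they were -0.23, -0.59, -1.19, -1.54 and -0.34. Library totals moved the median of all genes by over 0.1 at day 0 (from -0.06 to 0.06), for day 3 against day 0 in iKO (from -0.01 to -0.13) and for the difference between the days (from 0.06 to -0.13), and FPKM moved the same 3 to 0.05, -0.12 and -0.11. With the counts of the -ps copies added, with -ps and rt copies added, or over members without a -ps copy, the number of members at least 2-fold above Ctrl was 0 on day 0 and 1 on day 3, and without paralogs it was 1 on day 3. Over the 23 members with under 35% of windows shared, an alternative chosen after seeing the data, as was adding rt copies, the counts were 0 and 1, the medians of day 3 against day 0 were -1.20 in Ctrl and -1.32 in iKO, and 19 and 22 members were at least 2-fold lower, out of fewer members tested. The members' share, in the order Ctrl and iKO at day 0 and at day 3, was 4.40%, 3.73%, 1.91% and 1.25% with -ps copies, 4.42%, 3.75%, 1.92% and 1.25% with both kinds, 4.24%, 3.60%, 1.84% and 1.20% over members without a -ps copy, and 12.7%, 10.97%, 6.51% and 4.08% of the deposited FPKM.

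Values of single members were recomputed for 35 of the 80 and changed sign in 19 cases. Over all 80, the difference between the days changed sign for 8 members with library totals, 7 with FPKM and 2 with DESeq2 size factors. Among the 35, the changes with library totals were Rpl22l1 at day 0 (0.0077), Rpl36 at day 3 (-0.00059) and the differences between days of Rpl11 (-0.16), Rpl14 (-0.17), Rpl38 (-0.12), Rpl7l1 (-0.17) and Rps19 (-0.032). With FPKM they were Rpl22l1 at day 0 (0.0029) and the differences of Rpl11 (-0.16), Rpl14 (-0.17), Rpl38 (-0.13) and Rpl7l1 (-0.16). With the copies added, of either choice, they were Rpl34 at day 0 (-0.38) and day 3 (-0.85) and the difference of Rps6 (-0.12). With a pseudocount of 0.1 CPM the difference of Rpl34 was 0.026. The cause was not tested, other than that the added counts are those of the copies. Of the other values, 1183 for single members and 146 for the summaries kept direction and size, and 373 for single members moved by more than the counting error without a change of sign.

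Without replicates, a difference between cultures, mice or library preparations cannot be told apart from genotype or medium. Depth limits Rpl3l, Rpl32l and Rpl39l, and shared sequence limits members taken alone, among them Rpl34, Rps6, Rps27, Rpl37, Rpl10, Rpl36a and Rpl36.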
